A study of Homo sapiens with 6 samples.

Results

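The insulin-like growth factor (IGF) axis was followed in MDA-MB-231 cells after TAZ knockdown through 10 genes, chosen by symbol from the 46427 genes of the deposited table. They are the ligand gene IGF2, the receptor gene IGF2R, the binding-protein genes IGFBP2, IGFBP3, IGFBP4, IGFBP6 and IGFBP7, and the genes of the mRNA-binding family IGF2BP1, IGF2BP2 and IGF2BP3. MDA-MB-231 is an established human cell line from a metastatic triple-negative breast cancer, and its genotype is given as wild type in both groups. Of the 6 libraries, 3 came from cells transfected with control-siRNA and 3 from cells transfected with siGENOME siRNA against human WWTR1, the gene that encodes TAZ, using the lipid reagent DharmaFECT4. All cells grew in low-glucose medium with heat-inactivated fetal bovine serum, which itself brings IGFs. Each group comprised 3 cell preparations of this 1 line, so the p-values below measure the spread between these preparations. The time between transfection and RNA harvest is not given for these libraries in the sources used here.

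IGF1 and IGF2 are secreted peptides that signal through the tyrosine kinase receptor IGF1R and, for IGF2, through INSR. IGF2R, the cation-independent mannose 6-phosphate receptor, takes up IGF2 for degradation in lysosomes and also sorts lysosomal enzymes. IGF-binding proteins hold IGFs outside the cell, and proteases such as PAPPA cut them and set the ligand free. The IGF2BP proteins are different in kind, being cytoplasmic proteins that bind IGF2 mRNA and many other transcripts and affect their stability, location and translation.

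The targeted gene was examined first. WWTR1 stood at 192, 190 and 190 CPM (counts rescaled so that libraries of unequal depth compare) with control-siRNA and at 17.3, 17.0 and 15.1 CPM with TAZ-siRNA, which is 8.64% of control-siRNA (log2 fold change -3.53, standard error 0.0613, adjusted p = 2.47e-10 in edgeR's quasi-likelihood test). Total counts per library ranged from 49662504 to 66769103 with control-siRNA and from 48307548 to 71749634 with TAZ-siRNA, and a floor of 3 counts equals 0.0411 to 0.0618 CPM, which covers counting error only. Of the markers examined, the epithelial KRT8 and KRT18 and the mesenchymal VIM and FN1 were abundant. The epithelial CDH1 had 2 to 36 counts and EPCAM 38 to 106, and the mesenchymal CDH2 had 0 to 26. Of the breast receptor genes, ESR1 had 0 to 6 counts, PGR 0 to 2 and ERBB2 2182 to 4174. The keratin gene KRT7 was called lower (log2 fold change -0.49, edgeR adjusted p = 5.44e-04) and KRT19 higher (0.37, 0.00123), and the part of these in the results was not tested. Of 5 markers of other cell types, PTPRC and DCN were at 0 in every library, ALB had at most 3 counts, PECAM1 had 246 to 416 counts and COL1A1 331 to 697. Their summed level was 11.3 to 12.4 CPM with control-siRNA and 14.0 to 16.6 CPM with TAZ-siRNA, where COL1A1 rose (log2 fold change 0.42, edgeR adjusted p = 0.00703), and the part of this in the results was not tested. In bulk RNA, fewer cells with a transcript and less of it per cell cannot be told apart.

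Of the 10 genes, 9 passed the filter on low counts and 6 were called at an adjusted p under 0.05, which is 66.7% of those tested. Over all 16966 genes tested, 3749 were called, a background of 22.1%, with 11.9% called higher and 10.2% called lower. The 10 genes and the gene lists below were chosen with earlier results of these data known. Their shares called are therefore a description beside this background. IGFBP4, IGFBP6, IGF2R and IGF2BP3 were called higher with TAZ-siRNA, and IGF2 and IGF2BP2 were called lower. IGFBP2, IGFBP3 and IGFBP7 did not pass the test, and IGF2BP1 had too few counts to enter it. Of the 9 genes tested, the TAZ-siRNA and control-siRNA libraries did not overlap in 6, against 39.6% of all genes tested. These were the same 6 genes that were called, so the separation adds no further evidence. The median log2 fold change of the 9 genes was 0.15, against -0.0054 over all genes tested.

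**Figure D1:**
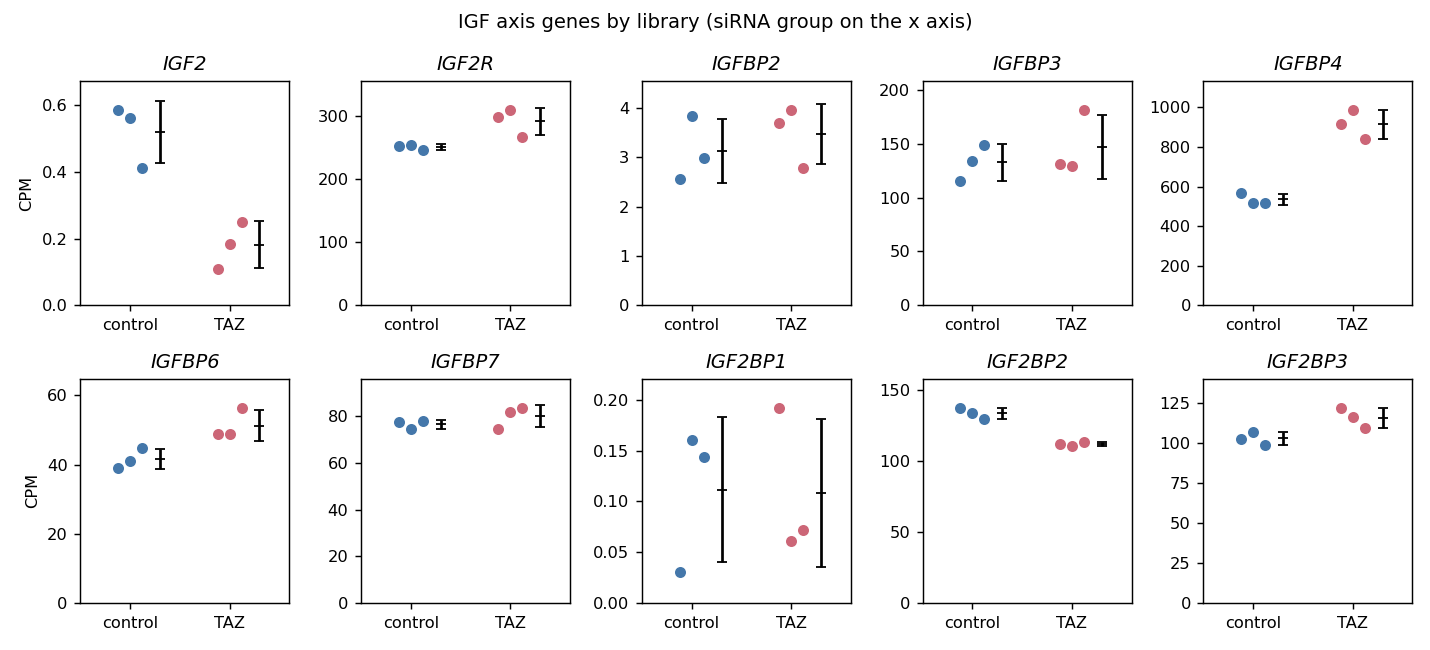
Level of each gene in CPM (y axis, from 0) in the 3 control-siRNA libraries (blue points) and the 3 TAZ-siRNA libraries (red points), with bars for the mean ± SD. IGFBP4, IGFBP6, IGF2R and IGF2BP3 lie higher and IGF2 and IGF2BP2 lower in all 3 TAZ-siRNA libraries, whereas the points overlap for IGFBP2, IGFBP3, IGFBP7 and IGF2BP1.

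Among the ligands, the mRNA of IGF2, a fetal growth factor that few adult tissues make in quantity, was scarce and fell further. Its gene lies at chr11:2129112-2149603 (GRCh38). It had 39, 35 and 20 counts with control-siRNA and 8, 9 and 14 counts with TAZ-siRNA. These correspond to 0.585, 0.562 and 0.412 CPM against 0.110, 0.182 and 0.251 CPM. The highest TAZ-siRNA library, replicate 3, stayed below the lowest control-siRNA library, also a replicate 3. The mean was 0.520 ± 0.0941 CPM with control-siRNA and 0.181 ± 0.0705 CPM with TAZ-siRNA (SD, n = 3), a 2.94-fold fall (log2 fold change -1.56, 95% interval -2.37 to -0.74, edgeR adjusted p = 0.0133). At these counts the call was thin. It was lost without control-siRNA replicate 1 (log2 fold change -1.46, adjusted p = 0.0618), without control-siRNA replicate 2 (-1.50, 0.059) or without TAZ-siRNA replicate 1 (-1.25, 0.0679). IGF1 and INS had 0 counts in every library. The genes that overlap IGF2 had almost none, with 0 counts for INS-IGF2 and at most 2 for the antisense gene IGF2-AS. H19, the imprinted non-coding RNA next to IGF2, had 24 to 42 counts and a log2 fold change of 0.39 (adjusted p = 0.421).

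Among the receptors, IGF2R was called higher, whereas IGF1R and INSR were not called. IGF2R (chr6:159969082-160111504) stood at 253, 254 and 246 CPM with control-siRNA and at 298, 309 and 267 CPM with TAZ-siRNA. TAZ-siRNA replicate 3 lay closest to the control-siRNA libraries but still above all of them. IGF2R mRNA was 116% of control-siRNA (250.9 ± 4.71 against 291 ± 21.8 CPM, log2 fold change 0.21, 95% interval 0.08 to 0.35, edgeR adjusted p = 0.0312). The call held without TAZ-siRNA replicate 3 (0.28, 3.20e-04) and was lost when any other single library was left out (adjusted p 0.0918 to 0.115). It was also lost when the fit was corrected for GC content and transcript length, which took the log2 fold change to 0.12 (adjusted p = 0.0845).

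IGF1R, the main signalling receptor of the axis, was at 76.9 ± 5.49 CPM with control-siRNA and 92.2 ± 17.2 CPM with TAZ-siRNA, with overlapping libraries (log2 fold change 0.26, edgeR adjusted p = 0.21). INSR, the insulin receptor, was at 26.9 ± 2.19 and 31.8 ± 5.87 CPM, and its libraries overlapped too (0.24, 0.216). Both were called without TAZ-siRNA replicate 3, IGF1R with a log2 fold change of 0.41 (adjusted p = 7.15e-05) and INSR with 0.38 (6.66e-04). The GC content and length correction took them to 0.12 (0.346) and 0.10 (0.393). INSRR, an orphan relative of INSR, had 0 to 3 counts.

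IGF2R also belongs to the machinery that tags lysosomal enzymes with mannose 6-phosphate and sorts them. Of 11 other genes of that machinery, all tested, 3 were called higher and 0 lower, which is 27.3% called, near the background of 22.1%, and the median log2 fold change was 0.06. GNPTAB and GNPTG, subunits of the enzyme that starts the tag, had log2 fold changes of 0.37 (edgeR adjusted p = 0.0203) and 0.21 (0.0464). SORT1, which encodes the sorting receptor sortilin, had 0.31 (0.0234). M6PR, the smaller cation-dependent mannose 6-phosphate receptor, had 0.00 (0.982). When single libraries were left out, the GNPTAB and SORT1 calls held in 2 of 6 fits and the GNPTG call in 1, with adjusted p up to 0.15 in the others. With all libraries, limma lost all 3 calls (adjusted p 0.0535 to 0.225), and the GNPTG call was also lost under DESeq2 (0.051), upper-quartile factors (0.0506) and no filter (0.0727).

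Among the binding proteins, IGFBP4, an inhibitor of IGF action that is cut by PAPPA, had the smallest adjusted p of the 9 genes tested and, after the lowly expressed IGF2, the largest change. IGFBP4 (chr17:40443450-40457725, 1 transcript in the deposited table) had 569, 517 and 518 CPM with control-siRNA and 917, 986 and 838 CPM with TAZ-siRNA. Every TAZ-siRNA library lay far above every control-siRNA library, with replicate 3 the lowest of the TAZ-siRNA libraries. IGFBP4 mRNA was 171% of control-siRNA (534.7 ± 29.5 against 913.8 ± 73.6 CPM), with a log2 fold change of 0.77 (95% interval 0.61 to 0.93, edgeR adjusted p = 1.36e-04). Only 4.88% of the genes tested had a larger change in either direction. The call held without each of the 6 libraries, with log2 fold changes of 0.72 to 0.83.

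IGFBP6, a binding protein that prefers IGF2 over IGF1, rose to a lesser degree. IGFBP6 (chr12:53097667-53102340) had 39.1, 41.0 and 44.9 CPM with control-siRNA and 48.7, 48.7 and 56.3 CPM with TAZ-siRNA. The highest control-siRNA library, replicate 3, stayed below all TAZ-siRNA libraries. The level was 123% of control-siRNA (41.7 ± 2.94 against 51.3 ± 4.41 CPM, log2 fold change 0.30, 95% interval 0.14 to 0.46, edgeR adjusted p = 0.0161). The call was lost without control-siRNA replicate 1 (0.26, 0.0798) or control-siRNA replicate 2 (0.29, 0.0753).

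The other binding proteins of the set did not pass the test. IGFBP3 (chr7:45912245-45921272), the main carrier of IGFs in serum, had 115, 134 and 149 CPM with control-siRNA and 131, 129 and 181 CPM with TAZ-siRNA (log2 fold change 0.15, 95% interval -0.23 to 0.53, edgeR adjusted p = 0.556). Replicate 3 was the highest library of both groups, and without TAZ-siRNA replicate 3 the log2 fold change turned to -0.024 (adjusted p = 0.899). IGFBP7 (chr4:57030773-57110385), an IGFBP-related secreted protein with low affinity for IGFs, had 77.4, 74.4 and 78.1 CPM against 74.6, 81.6 and 83.5 CPM (0.06, -0.06 to 0.18, 0.469). It was called higher after the GC content and length correction (0.15, 0.0238). IGFBP2 (chr2:216632828-216664436), a binding protein that can also bind integrins, was low, at 2.56, 3.84 and 2.99 CPM against 3.69, 3.95 and 2.79 CPM (0.15, -0.25 to 0.55, 0.589), and the same correction gave 0.26 (0.365). For these genes the groups overlapped, and the intervals leave room for changes of about the size measured for IGFBP6 in IGFBP2 and IGFBP3 but not in IGFBP7.

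Of the remaining relatives, IGFBP5 and IGFBPL1 were called higher and IGFBP1 was not called. IGFBP1, a binding protein under insulin control, was lower in all 3 TAZ-siRNA libraries at 10.4 ± 0.646 CPM against 12.2 ± 0.750 CPM (log2 fold change -0.24, edgeR adjusted p = 0.0644, and -0.28 with 0.0214 without TAZ-siRNA replicate 3). It lies 18.6 kb from IGFBP3 on chromosome 7. IGFBP5, which lies 7.7 kb from IGFBP2 on chromosome 2, had 19, 12 and 8 counts with control-siRNA against 38, 23 and 22 with TAZ-siRNA (1.08, 0.0406). IGFBPL1 had 11.6 ± 1.03 against 15.3 ± 2.31 CPM (0.40, 0.0292). Both calls held only in the fit without TAZ-siRNA replicate 3 among the 6 that left out 1 library, with adjusted p up to 0.157 for IGFBP5 and 0.126 for IGFBPL1 in the others. IGFALS, which encodes the third partner of the serum IGF complex, had 0 counts. With all libraries the IGFBP5 call was also lost under DESeq2 (0.0848), no filter (0.055), the GC content and length correction (0.0525) and limma (0.145 and 0.26), and limma lost the IGFBPL1 call (0.0729 and 0.079). Of the 8 binding-protein genes tested, 4 were called higher and 0 lower, which is 50% called against 22.1% of all genes, and 2 of these calls were the unstable ones of IGFBP5 and IGFBPL1. Their median log2 fold change was 0.23.

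**Figure D2:**
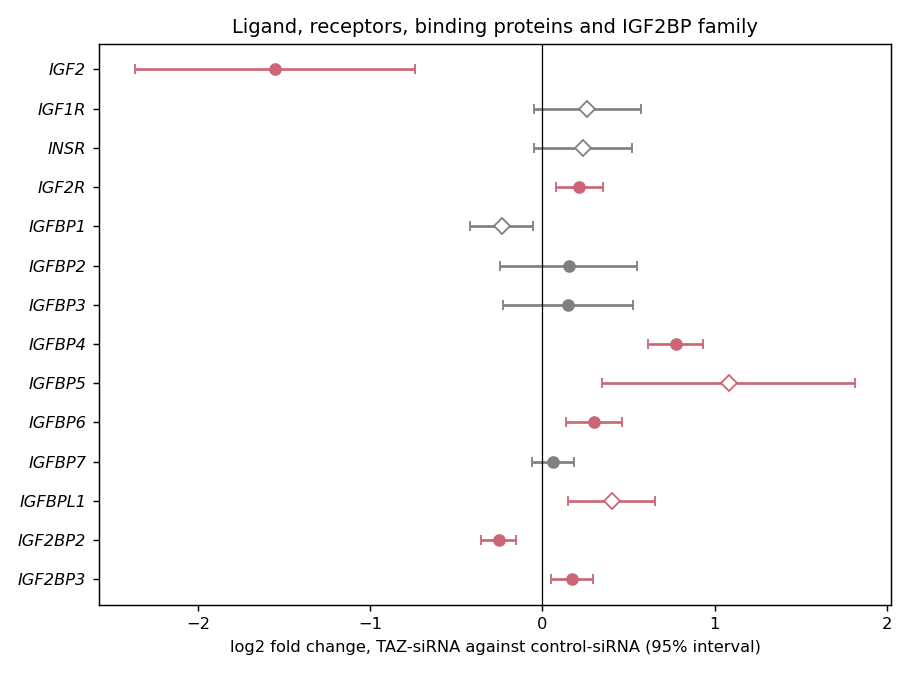
Log2 fold change of TAZ-siRNA against control-siRNA (x axis) with its 95% interval from edgeR for ligand, receptor, binding-protein and IGF2BP genes (circles for the genes followed here, diamonds for their relatives, red where the adjusted p is under 0.05). IGF2 lies farthest to the left at -1.56 with the widest interval, and IGFBP4 lies at 0.77 with an interval of 0.61 to 0.93.

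The genes were compared with each other in TPM, a unit that corrects for transcript length. IGFBP4 had the highest level, with a mean of 732 TPM over the 6 libraries, and did not overlap any other gene of the set. IGFBP7 (122 TPM), IGFBP3 (118 TPM) and IGFBP6 (109 TPM) followed, and neighbours among these 3 overlapped. IGF2BP2 (73.4 TPM) lay above IGF2BP3 (57.0 TPM) in every library, whereas IGF2BP3 and IGF2R (42.8 TPM) overlapped. IGFBP2 (5.19 TPM) lay well below these, and IGF2 (0.134 TPM) and IGF2BP1 (0.025 TPM) overlapped at the bottom.

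The summed TPM of IGFBP1 to IGFBP7 was 899, 861 and 855 with control-siRNA and 1346, 1418 and 1236 with TAZ-siRNA. All 3 TAZ-siRNA libraries lay above the control-siRNA libraries, at a ratio of the means of 1.53 (871.6 ± 23.7 against 1333 ± 91.7 TPM). Without IGFBP4 the ratio was 1.148 (344.6 ± 13.7 against 395.6 ± 22.5 TPM). IGFBP4 alone made up 60.4 ± 2.59% of the sum with control-siRNA and 70.2 ± 3.70% with TAZ-siRNA. Its lowest share with TAZ-siRNA was 65.9%, in replicate 3, above the highest control-siRNA share of 63.2%. These sums are described with no test. TPM, unlike the CPM above, are not TMM-scaled, so these ratios may differ in CPM.

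**Figure D3:**
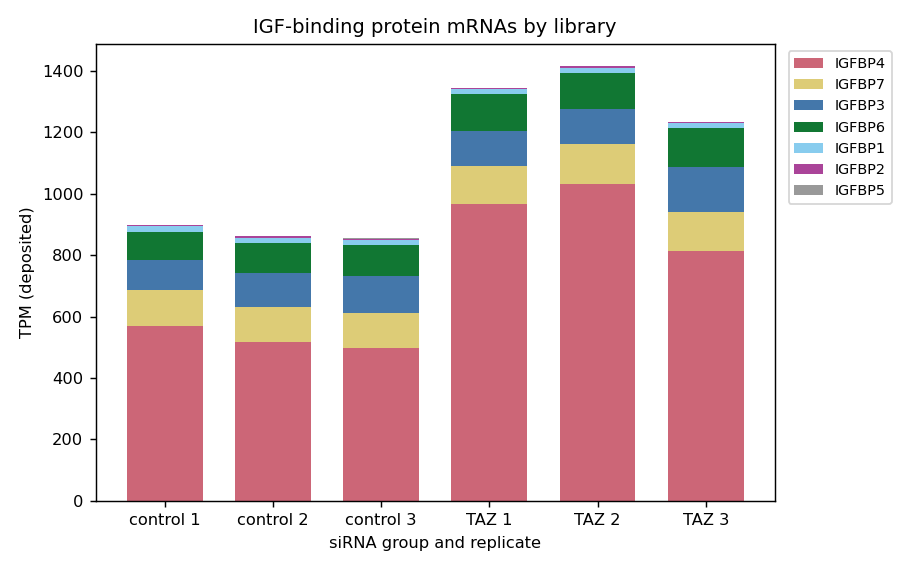
Stacked TPM (y axis, from 0) of IGFBP1 to IGFBP7 in each library (x axis), with 1 colour per gene. The IGFBP4 segment rises from 497 to 568 TPM with control-siRNA to 814 to 1031 TPM with TAZ-siRNA, and the other segments together go from 331 to 358 TPM to 379 to 421 TPM.

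Of 5 genes for proteases of the binding proteins or for inhibitors of PAPPA, 3 were called higher and 1 lower. This is 80% called, against 22.1% of all genes. PAPPA, the protease that cuts IGFBP4, had 59, 65 and 26 counts with control-siRNA and 131, 87 and 90 counts with TAZ-siRNA, or 0.885, 1.04 and 0.535 CPM against 1.80, 1.76 and 1.61 CPM. The groups were well separated at this low level (log2 fold change 1.05, 95% interval 0.54 to 1.56, edgeR adjusted p = 0.00928). HTRA1, a secreted serine protease that can cut IGFBPs, had 7.74, 7.54 and 7.62 CPM with control-siRNA and 11.7, 13.4 and 11.8 CPM with TAZ-siRNA. It did not overlap between the groups either (0.69, 0.50 to 0.87, 4.60e-04). Both calls held without each single library, and limma on log2(FPKM + 1) lost that of PAPPA (adjusted p = 0.0671). The stanniocalcins STC1 and STC2, secreted inhibitors of PAPPA, moved in opposite directions, with log2 fold changes of 0.24 (adjusted p = 0.0396) and -0.32 (0.0434). The STC1 call was lost in 3 of the 6 fits without 1 library and the STC2 call in 5, with adjusted p of 0.0623 to 0.167. The GC content and length correction also ended the STC1 call (0.127), and limma (0.128 and 0.145) and no filter (0.0564) the STC2 call. PAPPA2, a relative of PAPPA, had -0.52 (0.208).

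In the mRNA-binding family, IGF2BP2 fell and IGF2BP3 rose, while IGF2BP1 was at the limit of detection. IGF2BP2 (chr3:185643130-185825046) had 138, 134 and 129.97 CPM with control-siRNA and 112, 111 and 113 CPM with TAZ-siRNA. The libraries within each group were tight and the groups lay apart. IGF2BP2 mRNA was 83.8% of control-siRNA (133.9 ± 3.82 against 112 ± 1.45 CPM, log2 fold change -0.26, 95% interval -0.35 to -0.16, edgeR adjusted p = 0.00311). This call held without each of the 6 libraries, with log2 fold changes of -0.28 to -0.23.

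IGF2BP3 (chr7:23310209-23470674), an oncofetal family member, had 102, 107 and 99.0 CPM with control-siRNA and 122, 116 and 109 CPM with TAZ-siRNA. The lowest TAZ-siRNA library, replicate 3, lay just above the highest control-siRNA library. The level was 113% of control-siRNA (102.9 ± 4.08 against 115.8 ± 6.20 CPM, log2 fold change 0.17, 95% interval 0.05 to 0.29, edgeR adjusted p = 0.0453). The call held without TAZ-siRNA replicate 3 (0.21, 0.0022) and was lost when any other single library was left out (adjusted p 0.0822 to 0.175). With no filter on low counts the adjusted p was 0.0677.

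IGF2BP1 (chr17:48997385-49056145), the family member active in fetal tissue, had 2, 10 and 7 counts with control-siRNA and 14, 3 and 4 counts with TAZ-siRNA. The libraries overlapped fully, and in a fit with no filter the log2 fold change was 0.01 with an interval of -1.62 to 1.65 (edgeR adjusted p = 1), so that at this depth neither a rise nor a fall of that size was detectable. The summed TPM of the 3 family genes was 130.6 ± 6.85 with control-siRNA and 130.1 ± 8.35 with TAZ-siRNA, a ratio of 0.996. TPM, unlike the CPM above, are not TMM-scaled, and the near-constant sum did not carry over to CPM. In CPM the mean of IGF2BP2 fell from 133.9 to 112, by more than that of IGF2BP3 rose, from 102.9 to 115.8. Within the summed TPM the ratio of IGF2BP2 to IGF2BP3 was 1.54, 1.45 and 1.49 with control-siRNA and 1.09, 1.07 and 1.20 with TAZ-siRNA. The balance thus moved from IGF2BP2 towards IGF2BP3 in every TAZ-siRNA library. The family members are related in sequence, and how reads that match more than 1 of them were assigned is not given in the sources used here.

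IGF2BP2 has transcripts that begin at separate places on the minus strand of chromosome 3. Of the deposited transcripts with counts, 13 begin at positions 185825038 to 185825046 and 4 begin further downstream, at positions 185821131 to 185821142. The upstream group summed to 74.8, 73.8 and 102 CPM with control-siRNA and to 85.8, 95.8 and 83.2 CPM with TAZ-siRNA, with overlapping groups. The downstream group summed to 59.2, 58.9 and 26.3 CPM with control-siRNA and to 22.7, 14.1 and 25.97 CPM with TAZ-siRNA. Control-siRNA replicates 1 and 2 were high, whereas control-siRNA replicate 3 lay beside the TAZ-siRNA libraries, 26.3 against at most 25.97 CPM. The downstream group held 43.1, 43.9 and 20.3% of the IGF2BP2 counts with control-siRNA and 20.2, 12.7 and 22.9% with TAZ-siRNA, so the shares overlapped. Most downstream counts of control-siRNA replicates 1 and 2 lay in 1 transcript, that beginning at position 185821131. It had 3523, 3427 and 654 counts with control-siRNA and 722, 264 and 533 with TAZ-siRNA. The most abundant of those beginning at 185821142 did not share this pattern, with 190, 142 and 625 counts against 733, 264 and 723. The rest of the downstream group had at most 167 counts in any library. Reads were divided between transcripts by estimation, and no test was made of these values.

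**Figure D4:**
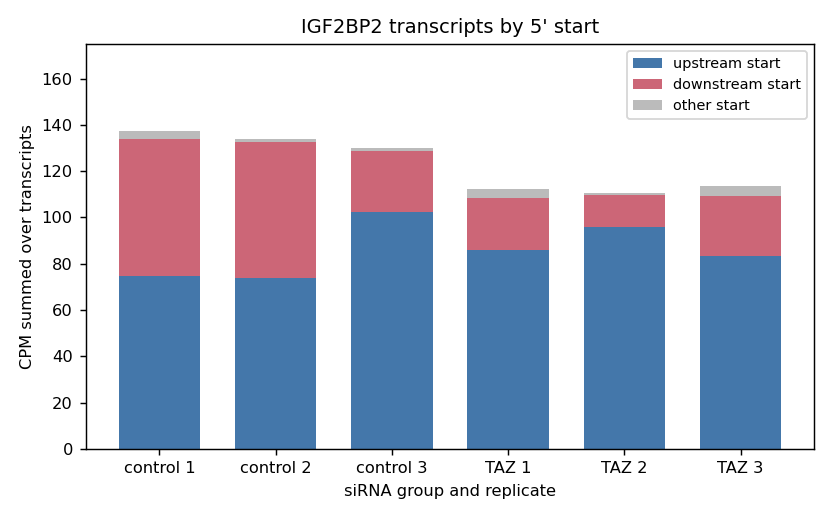
IGF2BP2 transcript levels summed by their 5′ start (stacked CPM, y axis from 0) in each library (x axis). The downstream segment is 58.9 to 59.2 CPM in control-siRNA replicates 1 and 2, 26.3 CPM in control-siRNA replicate 3 and 14.1 to 25.97 CPM with TAZ-siRNA.

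TAZ has no DNA-binding domain and reaches promoters and enhancers through TEAD factors, often next to AP-1, so the sequences just before the starts were searched for the TEAD motif GGAATG and the AP-1 motif TGANTCA on both strands. The RefSeq windows (GRCh38.p14) run from 250 bases before to 50 bases after a start and were given for 7 of the 10 genes, in 10 windows. IGF2, IGFBP7 and IGF2BP1 had none. The TEAD motif was found in the window of the downstream IGF2BP2 start, on the reverse strand 111 bases before the start, and in the IGFBP6 window, 101 bases before the start. The same IGF2BP2 window held a match to the pattern TGANTCA 137 bases before the start. It reads TGATTCA, and the N of the pattern admits any base. Over all 35116 windows, 14.0% held the TEAD motif and 7.7% the AP-1 motif. The 250 bases before these starts are shown with the matches in capitals, together with those of the upstream IGF2BP2 start, for contrast within the gene, and of IGFBP4, the most abundant binding protein, both without a match. They are chr3:185821143-185821392 (minus strand), chr3:185825043-185825292 (minus strand), chr12:53097417-53097666 (plus strand) and chr17:40443200-40443449 (plus strand).
IGF2BP2 downstream start: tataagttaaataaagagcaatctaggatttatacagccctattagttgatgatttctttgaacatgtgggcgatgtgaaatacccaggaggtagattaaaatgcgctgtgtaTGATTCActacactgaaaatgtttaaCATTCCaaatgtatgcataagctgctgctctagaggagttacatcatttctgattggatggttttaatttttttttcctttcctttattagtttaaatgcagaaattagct
IGF2BP2 upstream start: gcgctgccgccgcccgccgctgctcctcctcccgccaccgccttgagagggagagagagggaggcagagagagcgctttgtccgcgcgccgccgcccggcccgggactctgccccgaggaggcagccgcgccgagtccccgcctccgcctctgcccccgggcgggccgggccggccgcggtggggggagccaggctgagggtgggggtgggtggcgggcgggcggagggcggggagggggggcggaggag
IGFBP6: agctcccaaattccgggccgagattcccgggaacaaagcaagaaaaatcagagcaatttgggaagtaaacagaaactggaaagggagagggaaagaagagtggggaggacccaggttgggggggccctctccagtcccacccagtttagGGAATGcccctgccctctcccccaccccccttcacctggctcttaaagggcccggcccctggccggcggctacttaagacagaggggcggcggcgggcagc
IGFBP4: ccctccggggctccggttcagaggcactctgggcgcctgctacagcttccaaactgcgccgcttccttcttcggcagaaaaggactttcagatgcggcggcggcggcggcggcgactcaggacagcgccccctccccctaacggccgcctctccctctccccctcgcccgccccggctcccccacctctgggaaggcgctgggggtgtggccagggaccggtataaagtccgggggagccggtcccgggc

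The windows of the IGF2BP2 starts differed in base composition. The downstream window had 35.0% G and C and the upstream window 80.7%, against a median of 58.7% over all windows. IGFBP4 (74.0%), IGFBP6 (61.7%) and IGF2R (78.7%) lay above that median. A match in such a window is a string of letters and was not tested for binding, and enhancers were not examined.

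Genes that the IGF2BP proteins are described as binding were examined as a group. Of 7 tested, 1 was called higher and 1 lower, which is 28.6% and near the background of 22.1%, and the median log2 fold change was 0.12. HMGA2, an oncofetal chromatin protein gene, rose with a log2 fold change of 0.30 (edgeR adjusted p = 0.00253), and MYC, a growth-promoting transcription factor gene, fell with -0.30 (0.00973). The MYC call was lost without control-siRNA replicate 1 (-0.27, 0.0555) or TAZ-siRNA replicate 1 (-0.27, 0.0537). LIN28B had at most 2 counts.

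The wider IGF pathway was followed through 60 genes from ligands to kinases, the 10 genes included. Of the 54 tested, 19 were called higher and 7 lower, which is 48.1% called, at a median log2 fold change of 0.13. Without the 10 genes, 20 of 45 were called (44.4%), 15 higher and 5 lower. The list was drawn up with earlier results of these data known, so these shares are a description beside the background of 22.1%.

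Among the adaptors that link the receptors to their kinases, 2 of 8 tested were called higher and 3 lower, which is 62.5% against 22.1% of all genes, and the median log2 fold change was -0.02. SOS1, an exchange factor that loads RAS with GTP, rose by 0.39 on the log2 scale (edgeR adjusted p = 0.00139), and GRB10, an adaptor that dampens IGF1R and INSR signalling, rose by 0.30 (0.00274). GRB14, a relative of GRB10, had -0.72 at only 42 to 126 counts (0.0477), and IRS1, a docking protein of both receptors, had -0.28 (0.0365) although its groups overlapped. The third gene called lower was the adaptor SHC1, with -0.25 (0.0475), named after its value was seen and not followed in the other fits. The SOS1 and GRB10 calls held without each library, the IRS1 call in 3 of 6 such fits (adjusted p up to 0.145 in the others) and the GRB14 call in 1 (up to 0.194). Limma lost the IRS1 (0.115 and 0.121) and GRB14 (0.0856 and 0.0907) calls, no filter (0.0502) and the GC content and length correction (0.0646) also lost that of GRB14, and the correction took GRB10 to 0.19 (0.0292).

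In the PI3K-AKT-mTOR arm, which carries the growth and survival signal, 7 of 18 genes were called higher and 1 lower, which is 44.4% against 22.1% of all genes, and the median log2 fold change was 0.12. PIK3CB, a catalytic PI3K subunit, had a log2 fold change of 0.39 (edgeR adjusted p = 0.00364) and the AKT substrate GSK3B had 0.36 (0.00776). The forkhead factors FOXO1 and FOXO3, which AKT keeps out of the nucleus, had 0.38 (0.0171) and 0.28 (0.00721). The gene called lower was AKT1, with -0.17 (0.027), named after its value was seen and not followed in the other fits. The FOXO1 call was lost in 3 fits without 1 library, at adjusted p of 0.0686 to 0.0799, and the PIK3CB, GSK3B and FOXO3 calls in none. Limma also lost the FOXO1 call (0.0586 and 0.06), and the GC content and length correction took FOXO3 to 0.15 (0.0165). In the RAS-MAPK arm 1 of 9 genes was called, a share of 11.1% and below the background. This was BRAF with a log2 fold change of 0.26 (edgeR adjusted p = 0.00811), a call that limma lost (0.0586 and 0.06), and the median of the arm was 0.10.

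**Figure D5:**
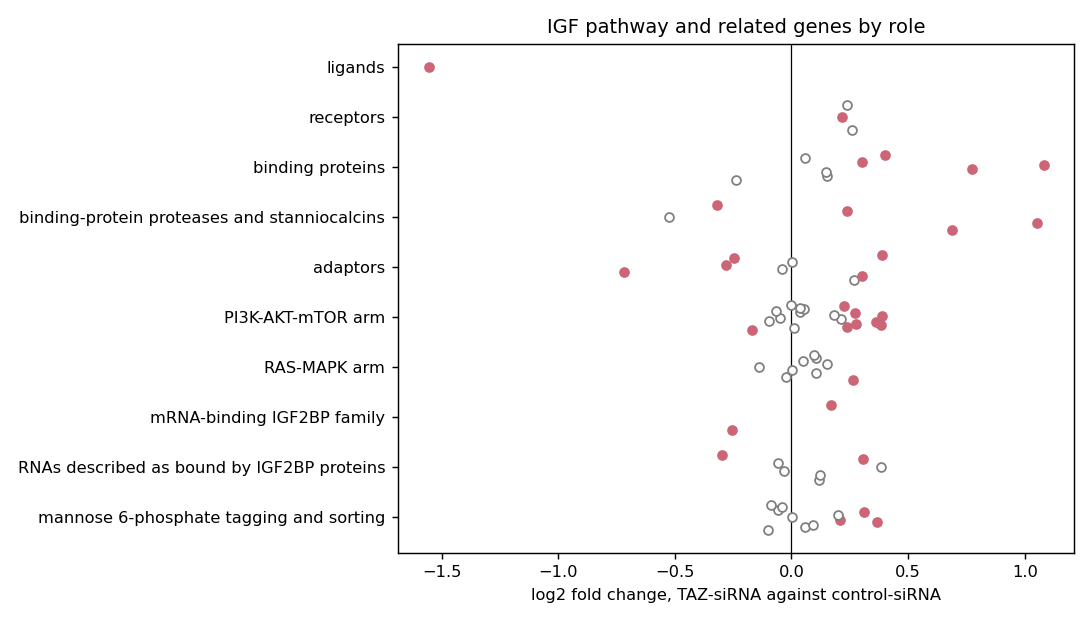
Log2 fold change of TAZ-siRNA against control-siRNA (x axis) for each tested gene of the IGF pathway and the related lists, in rows by role (filled red points for an adjusted p under 0.05, open points otherwise). Binding proteins and their proteases reach about 1 only at the low-count IGFBP5 and PAPPA, and the medians of these rows are 0.23 and 0.24. The adaptors spread from -0.72, at the low-count GRB14, to 0.39, and 1 of the 9 RAS-MAPK genes is filled.

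For 5 of the genes called, the gene with the closest profile was sought by the Euclidean distance between centred log2 CPM values over the 6 libraries, and 9932 genes averaging 10 CPM or more were eligible. The closest profile was that of CHSY1 to IGF2R (distance 0.0415), ELFN2 to IGFBP4 (0.0859), HPCAL1 to IGFBP6 (0.0436), WWC2 to IGF2BP2 (0.0395) and MARCHF8 to IGF2BP3 (0.0345).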

How the data were processed

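RNA from MDA-MB-231 cells was sequenced as strand-specific mRNA libraries. As their methods state, the authors used HISAT2 for mapping to GRCh38 and StringTie for quantification. The submitters' processing notes list Bowtie 0.12.2 and the build mm8 beside GRCh38, and which step used them is not given. The deposited estimated counts are whole numbers. The authors also gave FPKM values, which correct for length and depth, and deposited TPM values, which correct for length and share a fixed total. Whether counting used strand is not given in the sources used here, so reads of IGF2BP2 and IGF2BP2-AS1 (16 to 23 counts), or of IGFBP7 and IGFBP7-AS1 (2 to 7 counts), may not be told apart.

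Libraries were grouped by their labels, and the replicate numbers are those of the value columns. Counts were compared with edgeR 4.0.16 (R 4.3.3), with TMM factors, its filterByExpr filter (minimum count 10) and the robust quasi-likelihood test, and p-values were adjusted over 16966 genes by the Benjamini-Hochberg method. CPM used TMM-scaled library sizes. Alternatives were DESeq2 1.42.0, limma 3.58.1 on log2 FPKM with a pseudocount of 1 or 0.1, other scalings and filters, a threshold of 0.01, a replicate block, a GC content and length spline of 5 degrees of freedom, and leaving out each library. The edgeR fits were tested on simulated counts. The members and lists were chosen with earlier results of these data known. Named are all 10 members, WWTR1, every ligand, receptor and binding protein, the 4 largest changes called per list, and the closest profile to each member called, of which 1 is not reported here. Gene coordinates come from the deposited transcript table and promoter sequences from RefSeq (GRCh38.p14). Replicates of a group differed by more than sampling noise, with replicate 3 the most distant in both groups. The chi-square per degree of freedom, larger where 2 libraries differ more, was 6.77 between control-siRNA replicates 1 and 2. It was 20.1 and 22.1 in the control-siRNA pairs with replicate 3. With TAZ-siRNA it was 11.7 between replicates 1 and 2, and 30.1 and 41.8 in the pairs with replicate 3.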

Additional observations from a re-analysis of the deposited data

How the results depend on the processing

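The 6 calls among the 10 genes, 4 higher and 2 lower, were the same genes under DESeq2, upper-quartile factors and relative log expression factors. With no filter 5 were called, IGF2BP3 being lost, and with at least 10 counts in every library 5, IGF2 no longer being tested. The GC content and length correction also gave 6, with IGFBP7 gained and IGF2R lost. At an adjusted p under 0.01 the count was 2, and limma on log2(FPKM + 1) and on log2(FPKM + 0.1) gave 3 each, namely IGFBP4, IGFBP6 and IGF2BP2. In limma IGF2 had a log2 fold change of -0.07 with the larger pseudocount (adjusted p = 0.108) and of -0.51 with the smaller (0.0505), since a pseudocount dwarfs so low a level. Leaving out 1 library gave 2 to 6 calls, with 2 (IGFBP4 and IGF2BP2) without control-siRNA replicate 1 or 2 and 6 without TAZ-siRNA replicate 3. For the IGF pathway list the count of 26 became 10 at an adjusted p under 0.01, 11 and 12 with limma at the larger and smaller pseudocount, and 10 to 37 without 1 library. Over all genes, leaving out 1 library gave 1937 (without control-siRNA replicate 2) to 5928 calls (without TAZ-siRNA replicate 3) against 3749, so fewer samples and which sample was left out both moved the counts. The only direction that turned was that of IGFBP3 without TAZ-siRNA replicate 3, at -0.024 (0.24 at most, without control-siRNA replicate 3), and the cause was not tested. Deviations from the group means correlated by -0.017, 0.009 and 0.07 between libraries of the same replicate number. Between libraries of different numbers the correlations ran from -0.095 to 0.1. With 3 libraries per group, these values cannot decide whether the replicate numbers pair the libraries. With the replicate number as a block, the same 6 of the 10 genes were called, 32 genes of the pathway list and 5122 of all genes, and INSR was called with a log2 fold change of 0.23 (adjusted p = 0.0325). Depth limited IGF2, IGF2BP1 and IGFBP5, which had at most 39, 14 and 38 counts in any library.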
